A study of Mus musculus with 12 samples.

Results

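Untreated cultures of mouse neocortical cells were compared with neocortex of postnatal day 10 (P10), to describe how the cell make-up, maturity and splice choice of the culture differ from those of developing tissue. The members are all rows of the deposited junction table of the first experiment, each distinct intron coordinate taken once, which gave 608954 coordinates. The comparison uses 4 of the 12 libraries of the series, 2 of culture and 2 of P10 neocortex. Every animal or embryo was wild type of the NMRI strain. The culture libraries came from neocortical cells dissociated at E16.5 and maintained for 14 days, with no DRB (a transcription blocker) and no bicuculline (a GABA-A receptor blocker). The P10 libraries came from neocortex taken directly from pups, likewise with neither agent. Libraries were made from polyadenylated RNA with a kit that keeps strand. A pair of libraries from neocortex of postnatal day 49 (P49) is given beside some values to show the adult level. The table's remaining 2 libraries are from the same kind of culture after 2 h in 50 µM DRB. They give no value below, but all 8 libraries of the table share 1 estimate of the spread.

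The labels do not say how many embryos or pups each library held, whether libraries of a group were separate cultures or animals, or whether glial growth was limited in culture. The 2 columns of P10 bear an identical tissue code. P-values therefore measure only the spread between these libraries, which may be technical. Columns name a group but no replicate, so library 1 and library 2 below follow column order and have no pairing.

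Dissociated neocortical cultures hold neurons and the glia that grow from embryonic precursors, without blood flow and without input from other brain regions. In the animal, the second postnatal week is a time of synapse formation, of the start of myelination and of a shift in many splice choices from embryonic to adult forms. Alternative exons are recorded by reads that cross exon junctions: reads that enter or leave the exon count for inclusion, and reads that jump over it count for skipping.

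Sequences of exons that carry the splicing results are shown first, 5′ to 3′ on the transcript, with the exon in capitals and 12 bases of each neighbouring exon in lower case. They are from GENCODE M21 transcripts on GRCm38. Snap25, which encodes a membrane fusion protein of the synapse, has a pair of mutually exclusive exons of 118 nt, at chr2:136769743-136769860 (exon 5a) and chr2:136770057-136770174 (exon 5b) on the plus strand. They are identical at 87 of 118 bases when aligned without gaps.
Snap25 exon 5a: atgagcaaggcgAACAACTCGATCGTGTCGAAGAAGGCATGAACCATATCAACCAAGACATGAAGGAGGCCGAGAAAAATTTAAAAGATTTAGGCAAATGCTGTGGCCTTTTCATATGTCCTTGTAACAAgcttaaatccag
Snap25 exon 5b: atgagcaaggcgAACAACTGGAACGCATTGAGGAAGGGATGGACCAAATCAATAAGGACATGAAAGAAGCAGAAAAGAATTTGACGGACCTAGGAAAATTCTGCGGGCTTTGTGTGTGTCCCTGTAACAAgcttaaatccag

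The next set holds short coding exons that culture included less than P10 neocortex, all with a length that is a multiple of 3. Those of Ptprf (27 nt, chr4:118227819-118227845, and 18 nt, chr4:118252076-118252093) and of Ptprs (27 nt, chr17:56427791-56427817) lie on the minus strand and belong to receptor tyrosine phosphatases that act in axon growth and synapse formation. Erc1, a scaffold protein of the active zone family, has an exon of 12 nt at chr6:119734081-119734092 on the minus strand. Tpd52l2, a vesicle trafficking protein, has an exon of 27 nt at chr2:181510504-181510530 on the plus strand. The Scn1a exon of 64 nt (chr2:66293832-66293895, minus strand) was instead included more in culture, and is known as a poison exon whose inclusion leads to decay of the sodium channel transcript.
Ptprf exon of 27 nt: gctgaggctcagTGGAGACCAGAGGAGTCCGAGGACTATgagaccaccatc
Ptprs exon of 27 nt: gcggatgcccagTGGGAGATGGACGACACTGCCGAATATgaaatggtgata
Ptprf exon of 18 nt: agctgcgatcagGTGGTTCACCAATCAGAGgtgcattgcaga
Erc1 exon of 12 nt: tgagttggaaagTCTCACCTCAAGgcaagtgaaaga
Tpd52l2 exon of 27 nt: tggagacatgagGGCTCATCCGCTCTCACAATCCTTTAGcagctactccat
Scn1a exon of 64 nt: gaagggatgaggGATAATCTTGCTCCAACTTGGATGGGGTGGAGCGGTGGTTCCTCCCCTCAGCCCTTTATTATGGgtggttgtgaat

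The culture libraries held 49559425 and 54709162 spliced reads and the P10 libraries 68516172 and 73900724. Introns of the annotation held 99.2% to 99.3% of them. Reads over annotated introns were summed per gene and scaled to a common library size after TMM adjustment (CPM), so a gene without introns has no value. CPM is not divided by gene length, so levels are compared between groups and not between genes. The 2 culture libraries had no tested gene more than 2-fold apart, and the P10 libraries had 59. Within each group, counts differed by more than sampling noise (chi-square per degree of freedom 7.45 in culture and 15.03 at P10), so no library was a copy of another.

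Most genes differed between culture and P10 neocortex. Of 15649 genes tested with edgeR's quasi-likelihood test at a Benjamini-Hochberg adjusted p of 0.05, 11543 were called (73.8%). Of these, 5770 were higher in culture (36.9%) and 5773 lower (36.9%). At a difference of at least 2-fold the counts were 2465 higher (15.8%) and 2603 lower (16.6%). The libraries of the groups did not overlap for 13648 of all genes tested (87.2%). The median log2 difference over all genes tested was 0.0047, and scaling by library totals alone moved it to 0.11. Of 19823 genes with spliced reads, 4174 fell below the filter on low counts, and a gene that passed only through the group where it is high had to differ. A count for a list is read against these shares. List genes without spliced reads under their symbol, such as Olig1, Sox2 and Cldn5, or below the filter, such as Gja1, have no value. In these bulk samples, fewer cells of a type and less RNA per cell cannot be told apart.

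**Figure D1:**
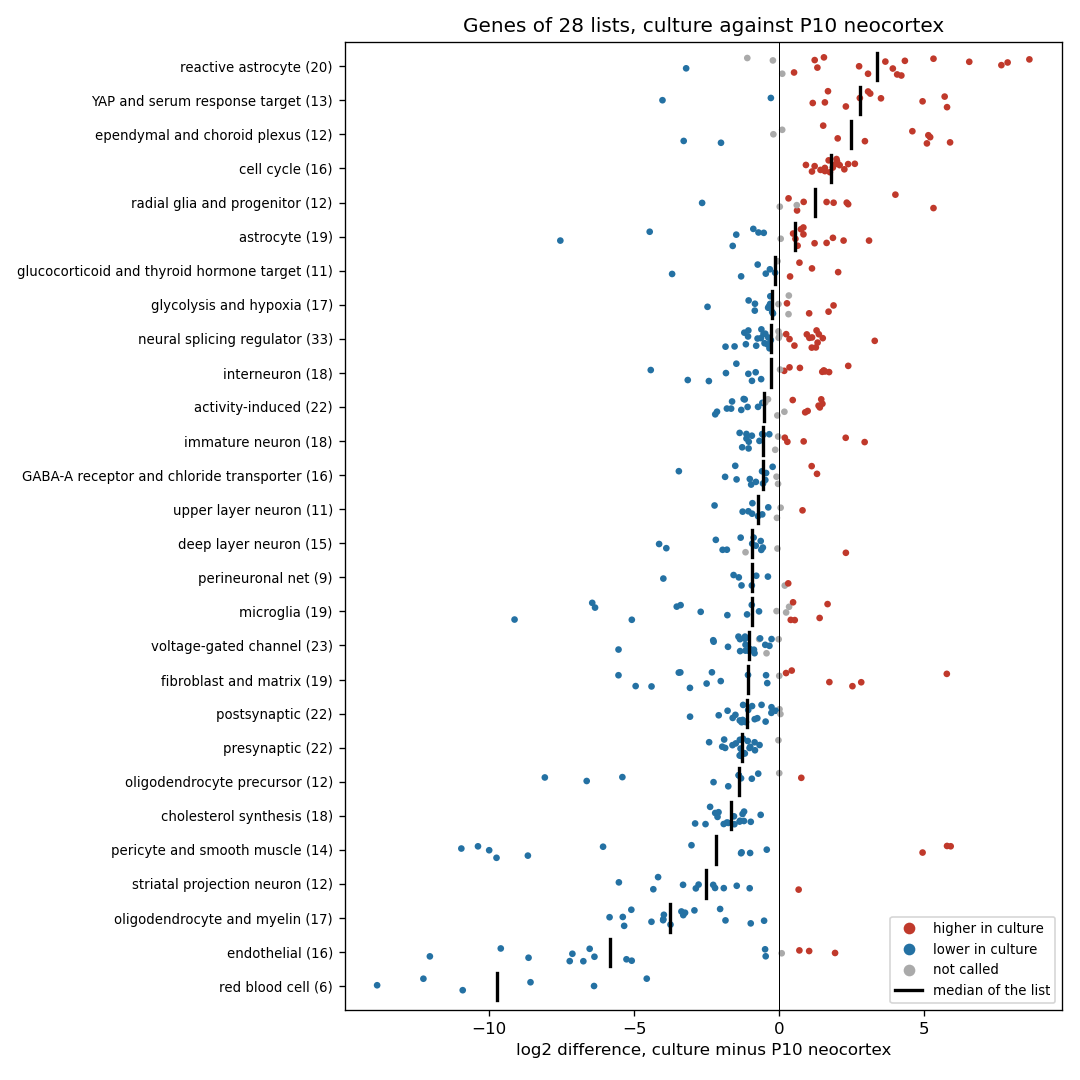
Log2 difference of each tested gene of 28 lists (culture minus P10 neocortex, horizontal axis), with the number of genes tested in brackets. Points are genes coloured by call and black bars are list medians, which run from 3.36 for reactive astrocyte genes to -9.74 for red blood cell genes.

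Astrocyte genes were present at high levels in culture but did not move as a block. Of 19 genes tested, 11 were higher and 7 lower, and the list median was a log2 difference of 0.56. Slc1a3, the glutamate transporter of radial glia and young astrocytes, had 1007 and 1004 CPM in culture against 324 and 324 CPM at P10 (log2 difference 1.63 ± 0.05, adjusted p = 1.86e-10, where ± is the standard error). Mlc1, a membrane protein of astrocyte endfeet, had 880.1 and 882 CPM in culture against 201 and 178 CPM at P10 (log2 difference 2.22 ± 0.06, adjusted p = 2.65e-11). For both genes every culture library lay above every P10 library. Slc1a2, S100b and Gjb6 were among the 7 lower genes. Slc1a2, the main glutamate transporter of mature astrocytes, had 121 and 122 CPM in culture against 357 and 319.8 CPM at P10 (log2 difference -1.48 ± 0.07, adjusted p = 2.41e-09). S100b, a calcium-binding protein, had 1.45 and 1.85 CPM in culture against 35.1 and 38.3 CPM at P10 (log2 difference -4.46 ± 0.11, adjusted p = 2.09e-11). Gjb6, the gap junction protein connexin 30, was close to absent in culture with 0.0565 and 0.034 CPM in culture against 8.99 and 8.45 CPM at P10 (log2 difference -7.54 ± 0.22, adjusted p = 5.99e-11). All 7 lower genes stood higher still at P49 than at P10, for example S100b at 76.6 and 77.5 CPM. Summed over the list, the level was 10202 to 10265 CPM in culture and 7212 to 7519 CPM at P10.

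Genes of the reactive state of astrocytes were far higher in culture, with 16 of 20 tested genes higher, 1 lower and a median log2 difference of 3.36. C3, the complement component used as a marker of that state, had 725 and 785 CPM in culture against 2.13 and 1.71 CPM at P10 (log2 difference 8.62 ± 0.12, adjusted p = 6.08e-13). Lcn2, a secreted iron-carrier protein induced in inflammation, had 55.1 and 68.1 CPM in culture against 0.205 and 0.312 CPM at P10 (log2 difference 7.87 ± 0.16, adjusted p = 7.19e-12). Vim, the intermediate filament vimentin, had 3666 and 3335 CPM in culture against 85 and 90.5 CPM at P10 (log2 difference 5.32 ± 0.07, adjusted p = 5.52e-13). The 2 culture libraries were alike for all 3 genes, and the P10 libraries lay near the P49 level of 1.93 and 1.27 CPM for C3. Gfap, the classic astrocyte filament, differed far less, with 185 and 196 CPM in culture against 150.8 and 123 CPM at P10 (log2 difference 0.48 ± 0.10, adjusted p = 0.00114). Of the list, Timp1, Hspb1 and Aspg were not called, and Sphk1 was the gene that was lower, with 0.32 and 0.187 CPM in culture against 2.85 and 1.83 CPM at P10.

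Progenitor and dividing-cell genes were also higher in culture. All 16 cell cycle genes tested were higher, with a median of 1.80, and all 16 were lower at P49 than at P10. Top2a, the topoisomerase of dividing cells, had 220.1 and 193 CPM in culture against 32.7 and 35.1 CPM at P10 (log2 difference 2.61 ± 0.08, adjusted p = 1.14e-10). Mki67, the marker of cycling cells, had 25.7 and 22.8 CPM in culture against 6.28 and 5.15 CPM at P10. Of 12 radial glia and progenitor genes tested, 9 were higher and 1 lower, with a median of 1.24. Pax6, a transcription factor of radial glia, had 51.7 and 49.8 CPM in culture against 9.5 and 10 CPM at P10, and Nes, the filament protein of neural stem cells, had 59.2 and 50.3 CPM in culture against 3.52 and 3.3 CPM at P10. Eomes, the marker of intermediate neuronal progenitors, was at 0.64 and 1.09 CPM in culture and 0.528 and 0.611 CPM at P10 and was not called. Hes5, a Notch target, was the member lower in culture, at 1.39 and 1.68 CPM against 10.1 and 9.35 CPM.

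Most genes of ciliated ependymal cells and choroid plexus were higher in culture than at P10 as well, with 8 of 12 tested genes higher, 2 lower and a median of 2.49. Summed over the list, the level differed less, at 442 to 460 CPM in culture and 341 to 353 CPM at P10. At P49 it was 585 to 593 CPM, above the culture. Foxj1, the regulator of motile cilia, had 45.9 and 41.1 CPM in culture against 1.48 and 0.992 CPM at P10 (log2 difference 5.14 ± 0.15, adjusted p = 8.69e-11). Ttr, the transport protein made by choroid plexus, had 207 and 198 CPM in culture against 1.72 and 5.03 CPM at P10 (log2 difference 5.89 ± 0.29, adjusted p = 4.46e-09), and the P10 libraries were more than 2-fold apart for it. Kl, another choroid plexus gene, was near 0 in culture at 0.0188 and 0.119 CPM.

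Myelin genes were low in culture throughout: all 17 tested were lower, with a median of -3.75. Mbp, the myelin basic protein, had 18.3 and 22.2 CPM in culture against 346 and 301 CPM at P10 (log2 difference -4.00 ± 0.10, adjusted p = 2.72e-11). Mog, a late myelin glycoprotein, had 0.264 and 0.527 CPM in culture against 24.3 and 22.2 CPM at P10 (log2 difference -5.85 ± 0.17, adjusted p = 8.13e-11). For both genes the culture libraries lay far below both P10 libraries, and 15 of the 17 were higher still at P49, where Mog reached 79.8 and 89.6 CPM. No myelin gene was at 0 in both culture libraries. Of 12 oligodendrocyte precursor genes tested, 10 were lower and 1 higher, with a median of -1.39. None of the 10 lower genes was higher at P49 than at P10. Pdgfra, the receptor that marks oligodendrocyte precursors, was at 108 and 115 CPM in culture and 109 and 114 CPM at P10 (adjusted p = 0.987). Olig2, a transcription factor of the lineage, was higher in culture at 10.8 and 12.3 CPM against 7.16 and 6.47 CPM. Gpr17 and Bcas1, which mark precursors that are starting to differentiate, were far lower. Gpr17 had 0.113 and 0.187 CPM in culture against 14.9 and 15.7 CPM at P10 (log2 difference -6.64 ± 0.22, adjusted p = 1.52e-10) and Bcas1 had 2.47 and 2.64 CPM in culture against 108 and 108 CPM at P10 (log2 difference -5.41 ± 0.09, adjusted p = 2.49e-12).

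Microglia genes did not move as a block. Over the list, 11 of 19 were lower, 5 higher and 3 not called, with a median of -0.95 and a summed level of 386 to 445 CPM in culture against 663 to 670.2 CPM at P10. P2ry12, a receptor of resting microglia, had 0.132 and 0.17 CPM in culture against 14.5 and 12.3 CPM at P10 (log2 difference -6.45 ± 0.21, adjusted p = 1.73e-10). Siglech, another resting-state marker, had 0 and 0.017 CPM in culture against 6.48 and 5.73 CPM at P10, and Tmem119 had 0 and 0.051 CPM in culture against 2.38 and 2.31 CPM at P10. Csf1r, the growth factor receptor that microglia depend on, had 13.6 and 16.8 CPM in culture against 183 and 169.6 CPM at P10 (log2 difference -3.53 ± 0.09, adjusted p = 2.93e-11). Tyrobp, C1qa, C1qb, Cd68 and Trem2 were the 5 higher genes. Cd68, a lysosomal protein of phagocytes, had 27 and 33.1 CPM in culture against 9.67 and 9.29 CPM at P10 (log2 difference 1.67 ± 0.11, adjusted p = 5.18e-08), and Trem2, a phagocytic receptor, had 19.8 and 24.4 CPM in culture against 9.2 and 7.65 CPM at P10 (log2 difference 1.39 ± 0.16, adjusted p = 6.97e-06). Ptprc, the pan-leukocyte protein CD45, was at 6.52 and 8.25 CPM in culture and 5.79 and 6.73 CPM at P10 and was not called.

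Most vessel and blood genes were near 0 in culture. Of 16 endothelial genes tested, 12 were lower and 3 higher, with a median of -5.82. Cdh5, the cadherin of endothelial junctions, had 0.0753 and 0.051 CPM in culture against 25.4 and 26.2 CPM at P10 (log2 difference -8.64 ± 0.18, adjusted p = 5.77e-12). Tie1, an endothelial receptor, had 0 and 0.102 CPM in culture against 41.4 and 44.7 CPM at P10. Ly6c1 had no read in either culture library and was at least 159-fold lower than at P10, counting 3 reads per library as the floor. The 3 higher genes of the list were Slc2a1, a glucose transporter that other cells also use, Slco1a4, an organic anion transporter, and Ocln, a tight junction protein. Slc2a1 had 119.7 and 119.5 CPM in culture against 60.1 and 56.9 CPM at P10, and Slco1a4 had 72.7 and 59.7 CPM in culture against 20.2 and 14.7 CPM at P10. Kdr, a VEGF receptor, was at 110.5 and 92.7 CPM in culture and 95.7 and 95.6 CPM at P10 and was not called. All 6 red blood cell genes were lower, with a median of -9.74, or -6.96 with genes without culture reads set at their bound. Of these, Hbb-bs (at least 559.9-fold), Hbb-bt (at least 72.3-fold) and Alas2 (at least 185-fold) had no read in culture. In culture 5 of the 6 genes were at or under the floor of 3 reads per library. They passed the filter on low counts only through other libraries and could only come out lower, as could every gene without a culture read. Reads of the near-identical globin genes may be shared, so their single values are uncertain.

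Pericyte genes were mostly lower, while some contractile genes were higher. Rgs5, a pericyte marker, had 0.0565 and 0.119 CPM in culture against 36.7 and 37.4 CPM at P10 (log2 difference -8.66 ± 0.19, adjusted p = 9.73e-12), and Kcnj8, Des and Higd1b had no read in culture. Acta2, the smooth muscle actin, had 614 and 492 CPM in culture against 20.2 and 15.9 CPM at P10 (log2 difference 4.94 ± 0.13, adjusted p = 3.25e-11), and Tagln, an actin-binding protein, had 449 and 367 CPM in culture against 7.69 and 7.12 CPM at P10 (log2 difference 5.78 ± 0.11, adjusted p = 4.12e-12). With Cnn1 these were the 3 higher genes of 14 tested. Myh11, the smooth muscle myosin, was lower, with 1.24 and 1.48 CPM in culture against 11.3 and 10.9 CPM at P10. Fibroblast collagens were lower, among them Col1a1 with 18.2 and 19.3 CPM in culture against 177 and 139.7 CPM at P10 (log2 difference -3.08 ± 0.10, adjusted p = 1.41e-10). Among the 6 higher genes was Thbs1, a secreted thrombospondin, at 762 and 677 CPM in culture against 10.9 and 15.3 CPM at P10 (log2 difference 5.78 ± 0.13, adjusted p = 1.12e-11). Sparc, a matrix protein, had 2948 and 2693 CPM in culture against 487 and 493 CPM at P10. Of 19 fibroblast and matrix genes tested, 12 were lower and 6 higher. Targets of YAP and serum response factor, which respond to cell spreading and serum, were higher for 11 of 13 tested genes, with a median of 2.78. Ccn1, a secreted YAP target, had 179.6 and 175 CPM in culture against 3.27 and 3.52 CPM at P10 (log2 difference 5.70 ± 0.08, adjusted p = 5.52e-13). It shares Acta2 and Tagln with the smooth muscle list. Actg2, a smooth muscle actin, and Srf were its 2 lower genes.

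**Figure D2:**
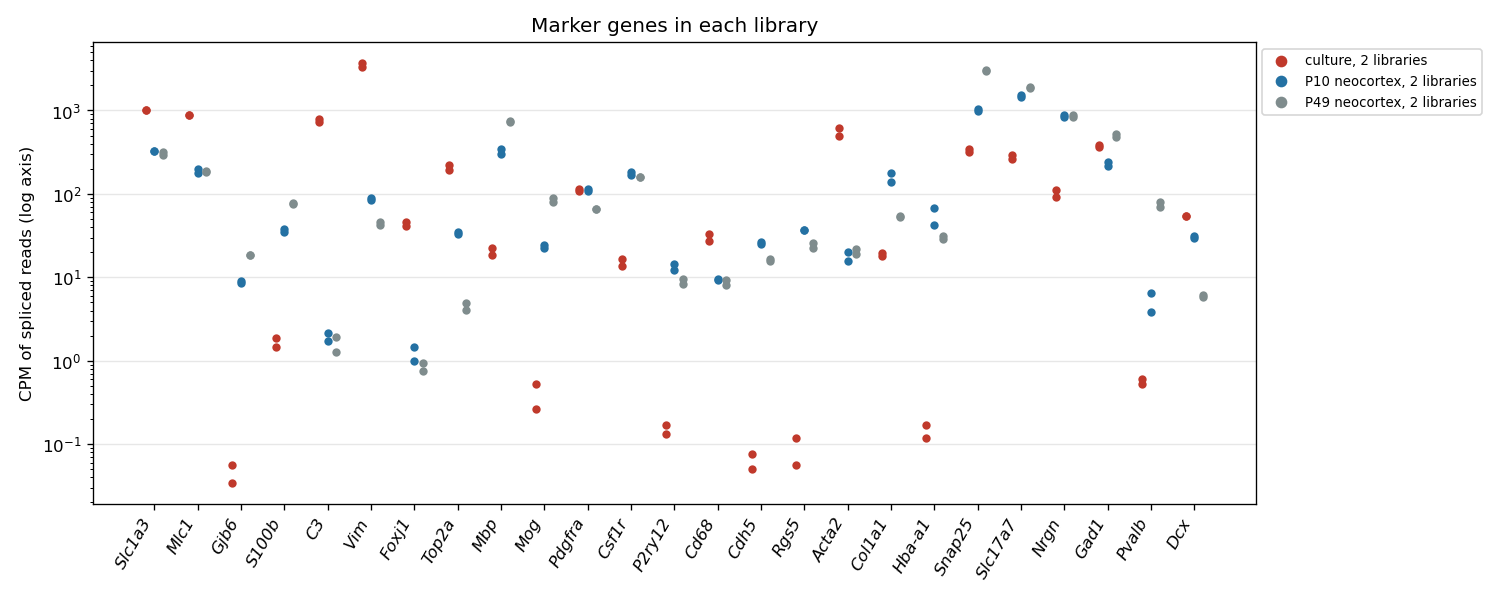
CPM of spliced reads (log vertical axis) of 25 marker genes in each library of culture, P10 and P49 neocortex, 1 point per library. Gjb6, P2ry12, Cdh5 and Rgs5 lie below 1 CPM in culture, while C3, Vim, Foxj1 and Acta2 lie above both tissue ages.

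Genes of cortical layer neurons were mostly lower in culture. Upper layer genes were lower for 8 of 11 tested (median -0.73) and deep layer genes for 12 of 15 (median -0.93). At P49, 4 of the 8 lower upper layer genes and 6 of the 12 lower deep layer genes stood above P10. Cux2, a transcription factor of upper layers, had 24 and 26.3 CPM in culture against 101 and 135 CPM at P10, and Tbr1, a factor of deep layers, had 13.1 and 13.7 CPM in culture against 53.1 and 50.5 CPM at P10. Crym, a thyroid hormone binding protein of deep layers, had 11.8 and 13.5 CPM in culture against 195 and 182 CPM at P10 (log2 difference -3.89 ± 0.09, adjusted p = 1.71e-11). Cux1 and Rorb of the upper layers and Ntsr1 and Nxph4 of the deep layers were not called. Lhx2, a factor that progenitors also express, was the upper layer gene higher in culture, with 55.4 and 62.7 CPM in culture against 34.8 and 32.8 CPM at P10. Ccn2 was the deep layer gene higher in culture, and it is also a YAP target. Genes of striatal projection neurons were lower for 11 of 12 tested. For several of them, such as Ppp1r1b with 28.3 and 26.3 CPM in culture against 238 and 137 CPM at P10, P10 library 1 lay well above P10 library 2.

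Interneuron genes were split, 9 lower and 8 higher of 18. Dlx1 and Dlx2, which act early in the lineage, were higher: Dlx1, a factor of newborn interneurons, had 26.1 and 29.1 CPM in culture against 8.76 and 8 CPM at P10 (log2 difference 1.72 ± 0.11, adjusted p = 3.01e-08). Erbb4, a neuregulin receptor, had 98.4 and 94.7 CPM in culture against 24.3 and 12.9 CPM at P10 (log2 difference 2.38 ± 0.20, adjusted p = 4.39e-07), with the P10 libraries apart. Gad1, the enzyme that makes GABA, had 367 and 383 CPM in culture against 243 and 215 CPM at P10. Subtype markers moved in both directions. Vip, a peptide of one subtype, had 32 and 31.8 CPM in culture against 27.4 and 29.3 CPM at P10 (adjusted p = 0.0331). Sst, the peptide somatostatin, had 12.1 and 12.8 CPM in culture against 63.5 and 69.9 CPM at P10 (log2 difference -2.42 ± 0.07, adjusted p = 5.52e-11). Pvalb, the calcium buffer of fast-spiking cells, had 0.527 and 0.612 CPM in culture against 6.41 and 3.82 CPM at P10 (log2 difference -3.15 ± 0.32, adjusted p = 2.37e-06) and reached 79.2 and 70.1 CPM at P49. Lamp5 had 2.96 and 2.93 CPM in culture against 71.5 and 55.2 CPM at P10 (log2 difference -4.43 ± 0.13, adjusted p = 7.24e-11).

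Synaptic genes were lower in culture with few exceptions. Of 22 presynaptic genes tested, 21 were lower and none higher, with a median of -1.28, against 36.9% lower over all genes. Snap25 had 317 and 346 CPM in culture against 1029 and 998 CPM at P10 (log2 difference -1.61 ± 0.05, adjusted p = 1.03e-10), and 3048 and 2974 CPM at P49. Slc17a7, the vesicular glutamate transporter of cortical excitatory neurons, had 263 and 295 CPM in culture against 1463 and 1516 CPM at P10 (log2 difference -2.42 ± 0.06, adjusted p = 2.16e-11). Syt1, the calcium sensor of release, had 342 and 344 CPM in culture against 909 and 849.5 CPM at P10. The other gene was not called. Of the 21 lower genes, 18 were higher still at P49 than at P10. The share of all tested genes that were higher at P49 than at P10 was not counted. The P10 libraries enter the P49 comparison too, so the ages are set side by side only.

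Of 22 postsynaptic genes tested, 20 were lower and none higher, with a median of -1.11. Only 10 of the 20 lower genes were higher at P49 than at P10. Camk2a, the kinase subunit of mature excitatory synapses, had 388 and 404 CPM in culture against 1658 and 1701 CPM at P10 (log2 difference -2.09 ± 0.04, adjusted p = 5.73e-12). Nrgn, a calmodulin-binding protein of dendrites, had 90.7 and 112 CPM in culture against 887 and 823 CPM at P10 (log2 difference -3.07 ± 0.09, adjusted p = 5.05e-11). Shank1, a scaffold, had 113 and 127 CPM in culture against 402 and 421 CPM at P10. The glutamate receptor genes were less uniform. Grin1, the obligate NMDA receptor subunit, had 378 and 408 CPM in culture against 994 and 936 CPM at P10 (log2 difference -1.30 ± 0.05, adjusted p = 4.78e-10). Grin2b, the subunit of young synapses, had 20.5 and 20.7 CPM in culture against 21.1 and 19.9 CPM at P10 (adjusted p = 0.917), and Gria2, an AMPA receptor subunit, had 421 and 396 CPM in culture against 417 and 377 CPM at P10 (adjusted p = 0.503). For those 2 genes the libraries of the groups overlapped.

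Of 16 GABA-A receptor and chloride transporter genes tested, 12 were lower and 2 higher. Gabrd, the delta subunit of extrasynaptic receptors, had 4.78 and 5.73 CPM in culture against 62.7 and 53.3 CPM at P10 (log2 difference -3.46 ± 0.11, adjusted p = 1.18e-10). Slc12a5, the chloride exporter KCC2 of mature neurons, had 234 and 251 CPM in culture against 706 and 682 CPM at P10 (log2 difference -1.52 ± 0.05, adjusted p = 1.02e-10), while Slc12a2, the importer NKCC1 found in young neurons and in glia, had 159 and 156 CPM in culture against 79 and 65.8 CPM at P10 (log2 difference 1.12 ± 0.08, adjusted p = 6.97e-08). Gabrb1 was the other gene higher in culture, with 54.1 and 54 CPM in culture against 23.6 and 20.3 CPM at P10. Among voltage-gated channel genes 20 of 23 tested were lower and none higher, with a median of -1.04. Scn4b, a sodium channel auxiliary subunit, had 0.264 and 0.306 CPM in culture against 17.4 and 9.42 CPM at P10, with the P10 libraries apart. Scn3a, the sodium channel of embryonic brain, had 71.5 and 74.2 CPM in culture against 74.7 and 72.9 CPM at P10 (adjusted p = 0.749).

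Genes of growing neurons did not follow 1 direction, with 11 of 18 lower, 5 higher and 2 not called. Dcx, the microtubule protein of migrating neurons, had 54.3 and 54.6 CPM in culture against 29.8 and 30.9 CPM at P10 (log2 difference 0.84 ± 0.06, adjusted p = 1.93e-07). Draxin and Igfbpl1, which mark newborn neurons, were also higher, with Igfbpl1 at 32.7 and 32.4 CPM against 5.16 and 3.3 CPM. Stmn2, a tubulin regulator of growth cones, had 509.6 and 512 CPM in culture against 1191 and 1284 CPM at P10 (log2 difference -1.28 ± 0.05, adjusted p = 8.05e-10), and Gap43, another growth cone protein, had 231 and 236 CPM in culture against 476 and 490.3 CPM at P10. Dpysl3, an axon growth protein, had 769.6 and 774 CPM in culture against 741 and 843 CPM at P10 and was not called. Of the 11 lower genes 1, Neurod2, was higher at P49 than at P10.

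Beside these neuronal results stand the glial lists: the reactive astrocyte list summed to 4632 to 4918 CPM in culture and 154 to 158 CPM at P10, and the radial glia list to 5298 to 5701 CPM against 919 to 989.7 CPM. Vim, which both lists hold, made up 3666 and 3335 CPM of these sums in culture. The part that a larger share of glial RNA has in the lower neuronal levels was not tested.

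Activity-induced genes were split, 11 lower and 7 higher of 22 tested. Fos, the immediate early factor, had 12.8 and 12.47 CPM in culture against 6.34 and 7.21 CPM at P10 (log2 difference 0.90 ± 0.09, adjusted p = 2.37e-06), and Dusp1, a phosphatase induced by many stimuli, had 19.1 and 18.6 CPM in culture against 6.57 and 7.24 CPM at P10. Arc, an activity-induced synaptic protein, had 1.34 and 1.84 CPM in culture against 7.04 and 7.08 CPM at P10 (log2 difference -2.14 ± 0.20, adjusted p = 1.11e-06), and Plk2 had 129.8 and 129 CPM in culture against 298 and 307 CPM at P10. Npas4, which responds to calcium entry, had 7.72 and 6.67 CPM in culture against 9.01 and 9.77 CPM at P10 (adjusted p = 0.0658), and it was called lower when only the 4 libraries compared were fitted (adjusted p = 0.013) and with no filter on low counts (adjusted p = 0.0055). Of 9 perineuronal net genes tested, 7 were lower. Bcan, the brevican core protein, had 165 and 173 CPM in culture against 423 and 407 CPM at P10, and Acan, the aggrecan core protein, was not called at 4.1 and 3.86 CPM and 3.3 and 3.67 CPM.

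Cholesterol synthesis genes were lower as a set, 18 of 18 tested, with a median of -1.66. Hmgcs1, at the entry of the pathway, had 171 and 168 CPM in culture against 734 and 747 CPM at P10 (log2 difference -2.13 ± 0.06, adjusted p = 4.2e-11). Srebf2, the regulator of the pathway, had 173 and 168 CPM in culture against 341 and 332 CPM at P10. All but 1 of the 18 had a lower mean at P49 than at P10, with Hmgcs1 at 250.2 and 280.5 CPM. Of 17 glycolysis and hypoxia genes tested, 10 were lower and 4 higher, with a median of -0.24. Ndrg1 had 169 and 167 CPM in culture against 44.9 and 46.8 CPM at P10 and Ldha, lactate dehydrogenase, had 278 and 286 CPM in culture against 485 and 522 CPM at P10. Of 11 glucocorticoid and thyroid hormone targets 6 were lower and 4 higher. Hr, a direct thyroid hormone target in brain, had 5.89 and 6.39 CPM in culture against 79.6 and 79.4 CPM at P10 (log2 difference -3.69 ± 0.08, adjusted p = 6e-12), and Klf9, a target of both hormones, had 5.93 and 6.28 CPM in culture against 16.6 and 13.8 CPM at P10. Fkbp5, a glucocorticoid target, had 31 and 30.4 CPM in culture against 30.3 and 33.7 CPM at P10 (adjusted p = 0.51).

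The largest differences over all genes with enough reads named several genes outside these lists. Gpnmb, a lysosomal membrane protein of macrophages, had 139 and 157 CPM in culture against 0.543 and 0.421 CPM at P10 (log2 difference 8.26 ± 0.14, adjusted p = 2.49e-12), and Spp1, osteopontin, had 245 and 247 CPM in culture against 3.64 and 5.04 CPM at P10. Lrp2, an endocytic receptor of ependyma and choroid plexus, had 285 and 237 CPM in culture against 0.924 and 1.6 CPM at P10 (log2 difference 7.68 ± 0.16, adjusted p = 7.73e-12). Traf1, an adaptor of inflammatory receptors, had 62.9 and 59.5 CPM in culture against 0.469 and 0.693 CPM at P10. On the lower side, Ptgds, a prostaglandin synthase of meninges and oligodendrocytes, had 22.3 and 22.6 CPM in culture against 1221 and 1099.96 CPM at P10 (log2 difference -5.69 ± 0.07, adjusted p = 4.13e-13). Robo3, an axon guidance receptor, had 1.71 and 1.51 CPM in culture against 74.5 and 72.5 CPM at P10 (log2 difference -5.51 ± 0.11, adjusted p = 5.19e-12), and Il34, a neuronal ligand of the Csf1r receptor, had 1.13 and 1.92 CPM in culture against 43.6 and 43.4 CPM at P10 (log2 difference -4.82 ± 0.16, adjusted p = 1.73e-10). Eng and Flt1, which are endothelial, Vtn, which pericytes make, and Plxnb3, Col24a1 and Abi3bp completed the 10 lowest with Bcas1.

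Xist, the RNA that coats the inactive X chromosome of females, headed the higher genes with 166 and 164 CPM in culture and no read in either P10 or either P49 library. The difference was at least 3901-fold. Y-linked genes, looked at after this value was seen, were present in all 4 libraries: Ddx3y had 48 and 44.5 CPM in culture against 73 and 65.2 CPM at P10, Uty had 22.1 and 20.7 CPM in culture against 30.5 and 30.2 CPM at P10 and Eif2s3y had 56 and 53.9 CPM in culture against 121 and 130.2 CPM at P10, all called lower in culture, and Kdm5d had 38 and 35.8 CPM in culture against 40.3 and 40.9 CPM at P10 and was not called. The labels give no sex, so the sex of the animals and the culture cannot be told apart for X- and Y-linked genes.

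Splice choice was examined next, together with the proteins that set it. Of 33 neural splicing regulators tested, 13 were higher and 17 lower, with a median of -0.29. Ptbp1, which represses neuronal exons in non-neuronal cells, had 156 and 153 CPM in culture against 53.2 and 55.8 CPM at P10 (log2 difference 1.5 ± 0.05, adjusted p = 2.68e-10). Qk and Msi1, which are made in glia and progenitors, had 256 and 242 CPM in culture against 115 and 92.1 CPM at P10 and 174 and 182 CPM in culture against 74.3 and 67.8 CPM at P10. Rbfox1 and Rbfox3, which bind neuronal exons, were lower: Rbfox1 had 46.4 and 49.3 CPM in culture against 180.2 and 165 CPM at P10 (log2 difference -1.85 ± 0.06, adjusted p = 9.22e-11) and Rbfox3 had 87.3 and 90.1 CPM in culture against 267 and 249 CPM at P10 (log2 difference -1.54 ± 0.05, adjusted p = 2.23e-10). Srrm4, the activator of neuronal microexons, differed less, with 17.9 and 19 CPM in culture against 25 and 23.9 CPM at P10 (log2 difference -0.40 ± 0.07, adjusted p = 0.000346), and its relative Srrm3 had 20.3 and 22.9 CPM in culture against 50.1 and 45.9 CPM at P10 (log2 difference -1.15 ± 0.08, adjusted p = 8.55e-08). Ptbp2, the neuronal relative of Ptbp1, was at 136 and 135 CPM and 133 and 135 CPM (adjusted p = 0.777), and with scaling by library totals alone it was called higher (log2 difference 0.12).

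Inclusion was measured as percent spliced in (PSI), the mean of the reads into and out of an exon over that mean plus the reads that skip it. An exon could be tested only where the table holds its skipping junction, which left 1139 exons. Exons called at adjusted p 0.05 (edgeR) with a difference of at least 10 points numbered 262 (23%), of which 77 had higher inclusion in culture (6.76%) and 185 lower (16.2%). All 262 had libraries that did not overlap between the groups, as had 750 of all 1139 (65.8%). The reads into and out of the exon differed by over 3-fold for 341 of the 1139, so their PSI is uncertain. Without those exons 49 were higher and 142 lower of 798.

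Counts by exon length are a description, with no test between lengths. Of 109 exons of 3 to 27 nt, 46 were lower in culture (42.2%) and 5 higher (4.59%), with a median difference of -7.86 points. For exons of 28 to 51 nt, 37 of 155 were lower (23.9%), and for all exons the median difference was -0.76 points. Among short exons with even reads on both sides, 31 of 72 were lower and 3 higher. Exons within the coding sequence were lower for 119 of 452. The 5 higher short exons were those of Cltc (21 nt), Ank3 (12 nt), Lias (24 nt), Sidt1 (15 nt) and Afdn (21 nt). That of Afdn, a junction protein, had 39.5% and 42.6% in culture against 18.3% and 18% at P10, and that of Cltc, the clathrin heavy chain, 22% and 22.3% against 12.3% and 10.1%. The 185 lower exons had a median PSI of 25.7% in culture, 55.6% at P10 and 58.4% at P49. At P49, 106 of them lay beyond the P10 value, 71 between P10 and culture and 8 beyond the culture.

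**Figure D3:**
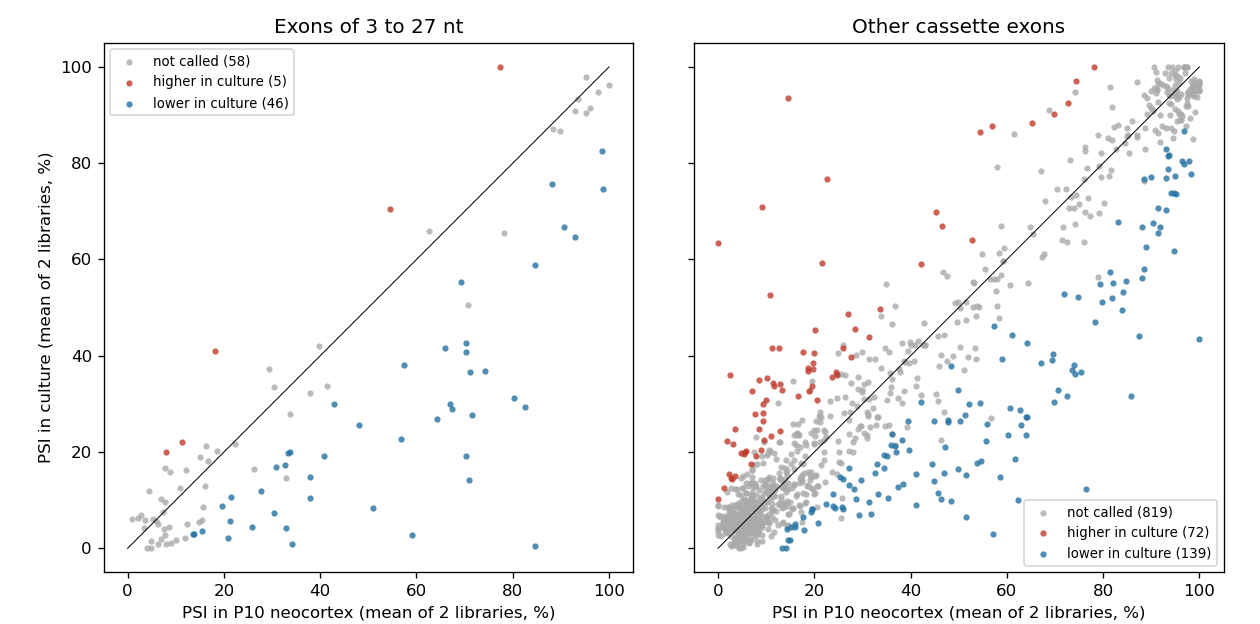
PSI of each tested exon in culture (vertical axis) against P10 neocortex (horizontal axis), means of 2 libraries, for exons of 3 to 27 nt (left) and others (right), coloured by call. Short exons lie mostly under the diagonal, with 46 lower and 5 higher.

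The exons of the receptor phosphatases shown above moved together. The Ptprf exon of 27 nt had a PSI of 28.3% and 30.3% in culture against 81.3% and 83.9% at P10 (difference -53.3 points, adjusted p = 1.31e-15), and the Ptprs exon of 27 nt had 28.2% and 34.3% in culture against 79.1% and 81.6% at P10 (difference -49.1 points, adjusted p = 6.39e-13). Another Ptprf exon, of 18 nt, had 25.2% and 30.3% in culture against 71.8% and 71.3% at P10 (difference -43.8 points, adjusted p = 2.64e-12), and a coding exon of 33 nt had 43.5% and 44.6% in culture against 86.7% and 88.3% at P10 (difference -43.5 points, adjusted p = 1.31e-15). In all 4 the culture libraries lay far below the P10 libraries. The third gene of the family, Ptprd, had a 27 nt exon at 75.2% and 76% in culture against 91.5% and 84.6% at P10 (difference -12.4 points, adjusted p = 0.0137), and this call was lost when either culture library or P10 library 1 was left out (adjusted p from 0.0551 to 0.185).

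Other short exons were included little in culture. The Tpd52l2 exon of 27 nt had 2.95% and 2.74% in culture against 49.8% and 68.2% at P10 (difference -56.1 points, adjusted p = 1.44e-14). The Erc1 exon of 12 nt had 7.56% and 9.14% in culture against 47.8% and 54.3% at P10 (difference -42.7 points, adjusted p = 8.06e-10). At P10 this Erc1 exon had 55 and 76 reads into it but 11 and 26 out of it, so the size of its difference is uncertain. Pus7, a pseudouridine synthase, had an 18 nt exon at 13.3% and 15.3% in culture against 68.4% and 73.5% at P10 (difference -56.7 points, adjusted p = 1.36e-07). The difference exceeded the spread between libraries for all 3, although the P10 libraries of Tpd52l2 lay apart. Snx21, a sorting nexin, had an 11 nt exon at 15.6% and 22.9% in culture against 75% and 65.5% at P10.

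Further exons with lower inclusion included those of a kinase, an ankyrin and a collagen. Camk2g, a kinase subunit, had a 63 nt exon at 11% and 12.2% in culture against 47.7% and 43.8% at P10 (difference -34.2 points, adjusted p = 1.29e-12). Ank2, the ankyrin that links membrane proteins to spectrin, had a 36 nt exon at 8.5% and 8.87% in culture against 28.7% and 22.7% at P10. Col11a1, a fibrillar collagen, showed the largest difference of all, in a 16 nt exon with 0.627% and 0.486% in culture against 84% and 85.2% at P10 (difference -84.0 points, adjusted p = 1.78e-17). The annotation gives this exon as coding although its length is not a multiple of 3. The Ptbp1 exon of 78 nt, which changes the repressor strength of the protein, had 24.2% and 29.1% in culture against 47.8% and 47.8% at P10 (difference -21.1 points, adjusted p = 2.91e-06), so both the level and the form of Ptbp1 differed.

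Exons with higher inclusion in culture were fewer. The Scn1a poison exon had 86.4% and 67.1% in culture against 20.7% and 24.5% at P10 (difference 54.2 points, adjusted p = 5.36e-07) and 6.81% and 6.6% at P49, so the culture libraries lay furthest from the adult. The gene as a whole was lower in culture, with 28.1 and 26.3 CPM in culture against 76.5 and 61.9 CPM at P10. Xpo1, a nuclear export receptor, had a 64 nt exon at 51.4% and 53.9% in culture against 10.3% and 11.1% at P10. Wdfy3, an autophagy adaptor, had a 54 nt exon at 42.8% and 40.5% in culture against 10.1% and 12.2% at P10, and Fam135a a 78 nt exon at 51.1% and 67.6% in culture against 23.5% and 19.7% at P10. A 90 nt exon of Nrxn3, a neurexin, had 88.3% and 88.4% in culture against 64.4% and 65.9% at P10 (difference 23.2 points, adjusted p = 3.26e-09). Ift46, Scube3 and Xylb also ranked among the largest, but each rests on 17 or fewer reads in its lowest library.

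**Figure D4:**
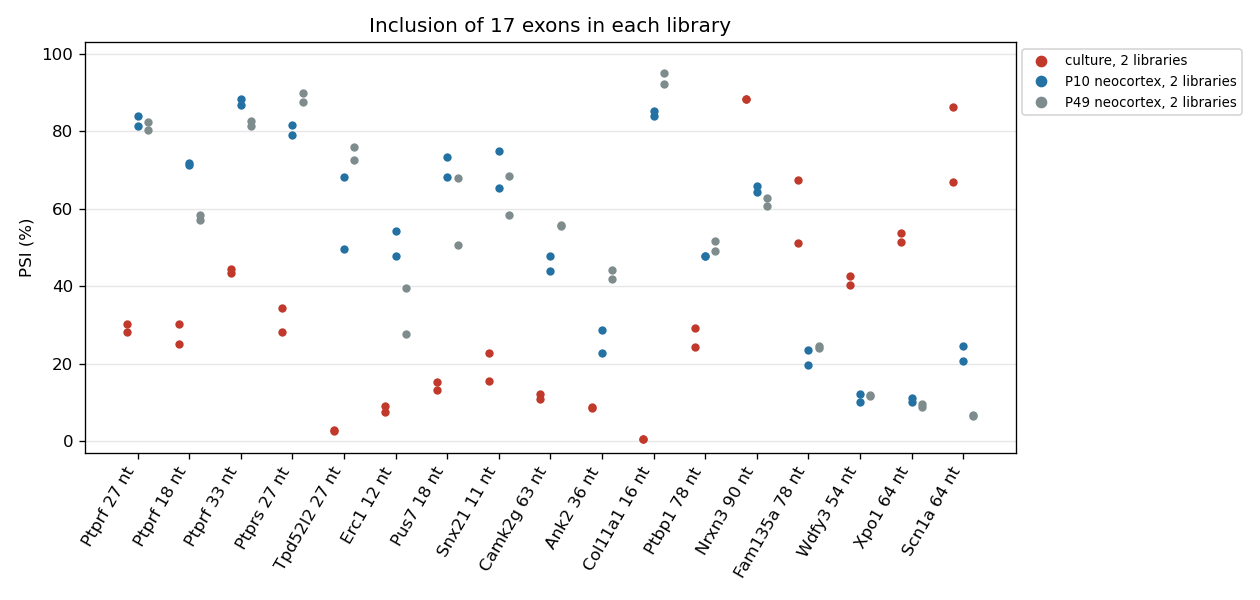
PSI (vertical axis, %) of 17 exons in each library of culture, P10 and P49 neocortex, 1 point per library. For the exons from Ptprf 27 nt to Ptbp1 78 nt the culture points lie under the P10 points, and for those from Nrxn3 90 nt to Scn1a 64 nt above them.

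Mutually exclusive pairs were read from the junctions of each exon. For Snap25, shown above, the table lists the junction into exon 5a and the junction out of exon 5b. Exon 5a had 2535 and 2771 reads in culture and 4461 and 4772 at P10, and exon 5b had 327 and 432 reads in culture and 7149 and 7416 at P10. Exon 5b, the adult form, thus made up 11.4% and 13.5% of the pair in culture, 61.6% and 60.8% at P10, and 90.2% and 87.4% at P49. Relative to the other junctions of the gene, 5a was higher in culture by a log2 difference of 1.15 (adjusted p = 2.18e-16) and 5b lower at -2.31 (adjusted p = 1.13e-26). For Scn2a, a sodium channel gene with a neonatal and an adult exon of 92 nt, the adult exon made up 42.1% and 53.7% of the reads out of the pair in culture, 83.6% and 84.3% at P10, and 97.3% and 98.3% at P49. Its reads were 110 and 137 in culture against 524 and 581 at P10. Relative to the other junctions of the gene, the neonatal exon was higher in culture by a log2 difference of 1.71 (adjusted p = 5.26e-14) and the adult exon lower at -0.81, which is under the 2-fold limit. In both genes the groups did not overlap and the culture lay further from P49 than P10 did.

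Because an exon without a skipping junction among the rows has no PSI, each annotated junction was also tested against the other junctions of its gene (edgeR's diffSpliceDGE, at least 2-fold at adjusted p 0.05). Of 141867 junctions in 11871 genes, 1772 were higher in culture relative to their gene (1.25%) and 1046 lower (0.737%). In 130 genes listed for known alternative splicing, 220 of 3107 junctions were called (7.08%), 131 higher and 89 lower, in 63 genes. Exons were counted when at least 1 flanking junction on each side was called in the same direction, whatever other junctions at those splice sites did. Of 125427 annotated exons, overlapping forms included, with a junction tested on both sides, 281 were lower by this count (0.224%) and 550 higher (0.439%). Of the 740 that were 3 to 27 nt long, 44 were lower by this count (5.95%) and 7 higher (0.946%). The use of an exon below is the mean read count of its most changed called junction on each side, as a percentage of the median junction of the gene. Other junctions at the same splice sites do not enter it, so it is not the full inclusion of the exon.

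App, the amyloid precursor protein, has exons of 168 nt and 57 nt that neurons largely skip and that other cells include. Use of the 168 nt exon was 30.1% and 26.7% in culture against 4.29% and 3.84% at P10, and that of the 57 nt exon was 27.2% and 24.6% in culture against 3.58% and 3.38% at P10. Relative to the gene, the junctions flanking the 57 nt exon were higher by log2 differences of 2.83 and 2.93. Map2, a dendritic microtubule protein, had a 93 nt exon at 49.8% and 46.1% in culture against 11.6% and 14.3% at P10, and 12.2% and 10.6% at P49. Unc13b, a vesicle priming factor, had a 118 nt exon at 92.3% and 84.5% in culture against 34.6% and 32.5% at P10. Exons of 132 nt in Erc1, at 62.3% and 53.7% in culture against 12.2% and 7.58% at P10, and of 306 nt in Ptprf, at 66.8% and 67.8% in culture against 12.3% and 11.7% at P10, were also used more, in genes whose short exons were included less.

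Several exons of neuronal receptors and channels were used less in culture. The 63 nt exon of Grin1, known as exon 5 or the N1 cassette, had 12 and 8 reads at its called junction into the exon in culture and 452 and 406 at P10. Its use was 1.75% and 1.41% in culture against 15% and 13.6% at P10 (log2 differences of -3.77 and -2.86 for the flanking junctions). Cacna1a, a calcium channel of nerve terminals, had a 97 nt exon at 2.49% and 2.98% in culture against 15.7% and 15.4% at P10 and a 36 nt exon at 21.2% and 22.4% in culture against 62% and 58% at P10. Mapt, the protein tau, had an 87 nt exon at 1.33% and 1.11% in culture against 5.28% and 3.61% at P10. At P49 the Cacna1a and Mapt exons were used more than at P10, so the order of the groups was culture, P10, P49 for each.

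Further short exons followed. Agrn, which organises synapses at nerve-muscle contacts when its short exons are in, had a 24 nt exon at 26% and 27.6% in culture against 93.2% and 75% at P10 and a 33 nt exon at 28.9% and 31.3% in culture against 88.5% and 81.3% at P10. The 33 nt exon could also be tested by PSI, and there it was not called. Picalm, a clathrin adaptor, had a 24 nt exon at 14.6% and 18.2% in culture against 41.7% and 43.1% at P10, Nrxn3 a 27 nt exon at 15.2% and 14.4% in culture against 30.2% and 39.6% at P10, and Dlg1, a synaptic scaffold, a 21 nt exon at 58.2% and 60.9% in culture against 114% and 105% at P10. The called junctions of the Dlg1 exon had 62 and 73 reads into it but 244 and 274 out of it in culture, so its use is uncertain. Macf1, a cytoskeletal linker, had a 12 nt exon at 6.95% and 7.3% in culture against 65.8% and 54.7% at P10. The tested log2 differences of its flanking junctions, -2.36 and -2.32, were smaller than those values imply. Use is set against the median junction of the gene, which can itself shift where many exons change. Runs of adjoining exons were used more in Macf1 and its relative Dst, where they include exons of 5331 nt and 5292 nt. The Dst exon of 5292 nt had a use of 20.3% and 18.4% in culture against 1.29% and 1.83% at P10.

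**Figure D5:**
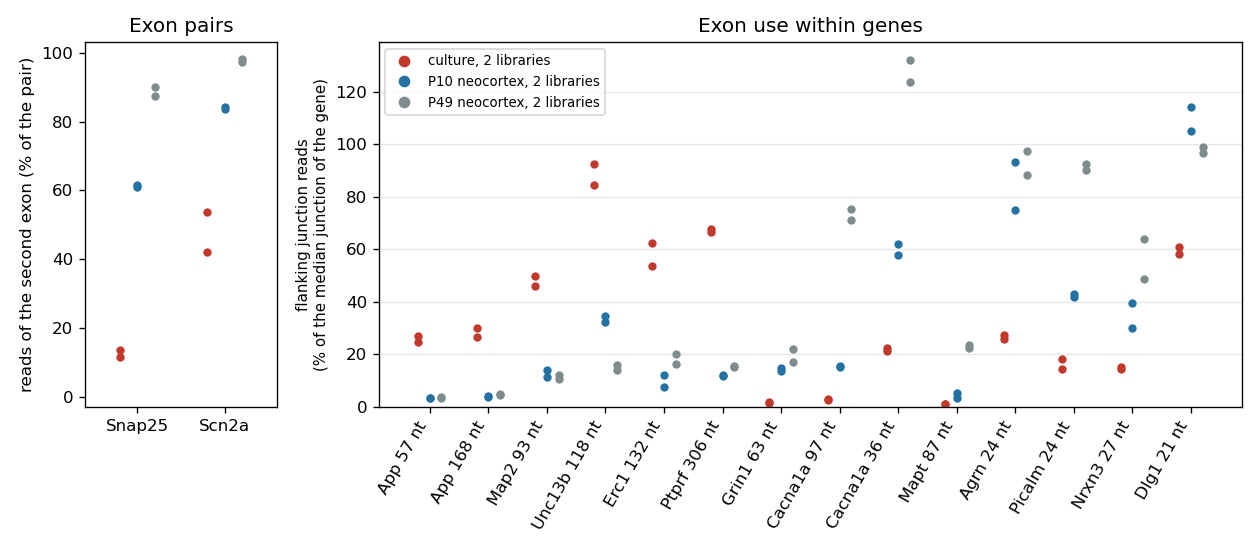
Left, reads of the second exon as a percentage of both exons of the Snap25 and Scn2a pairs. Right, use of 14 exons as a percentage of the median junction of their gene, with 1 point per library of culture, P10 and P49 neocortex, where App exons lie between 24.6% and 30.1% in culture and under 5% at P10.

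Beside the splicing results, the summed level of the reactive astrocyte list differed as given above, and 16 of its 20 genes were higher in culture. Whether exons differed within neurons or through the share of glial RNA was not tested.

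Choice between splice sites was tested where junctions share 1 end. Of 6747 junctions that share a 5′ splice site, 314 were called at 10 points or more (4.65%), in 216 genes. Of 7274 that share a 3′ splice site, 472 were called (6.49%), in 340 genes. With limma's voom and diffSplice in place of edgeR the counts were 554 and 901. Junctions whose 5′ splice site ends a first exon in any annotated transcript made up 97 of the 314 and 185 of the 472. Of all tested junctions of that kind, those were 3.6% of 2698 and 4.66% of 3974. Such a site can end an internal exon of other transcripts, and junctions sharing a 5′ splice site leave the same exon. These counts therefore do not measure the use of different starts. Atp9a, a lipid flippase gene, had a first-exon junction at 0% in both culture libraries and 80.6% and 75% at P10 (adjusted p = 0.00053), on 25 and 24 reads. Tbc1d2b, a Rab regulator, had a junction at 63% and 67.8% in culture against 1.64% and 0% at P10. Slc24a4, a sodium-calcium exchanger, had a junction at 23.1% and 26.7% in culture against 99% and 100% at P10. In Rps24, a ribosomal protein gene with a tiny alternative exon, a junction to a last exon had 89.7% and 93.1% in culture and 15.8% and 23.1% at P10, on only 3 reads in each P10 library. The groups did not overlap in any of these genes, which were picked for having some of the largest called differences. The share of all tested junctions without overlap was not counted.

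Some called junctions follow the library or the age of tissue as much as the culture. Of 2818 called junctions, 88 had P10 libraries more than 2-fold apart, such as a junction of Prr13 with 6 and 4 reads in culture but 174 and 1 at P10. A junction of Aars had 105 and 122 reads in culture, 657 and 1406 at P10 and 2 and 510 at P49. Rpsa and Rpl21, ribosomal protein genes with many near-identical copies, had junctions that were nearly all or nothing. One Rpsa junction had 3 and 5 reads in culture and 7335 and 7909 at P10, and one Rpl21 junction had 1163 and 1192 reads in culture and none at P10, so these values are uncertain. These junctions were chosen after their values were seen.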

How the data were processed

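Spliced reads were compared between 2 libraries of untreated neocortical culture and 2 of P10 neocortex. Reads had been aligned with STAR 2.4.0f1 to GRCm38 (mm10), per the submitters' processing notes, and the later counting step is not stated there. The values are counts of reads across each junction as deposited by the authors, with no normalisation. Rows hold 64 cells under 67 header names, so columns were read after a shift of 3. Another 48 per-library columns were left out. The control columns and the P49 columns were assigned by elimination.

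The 195701 junctions that match GENCODE M21 introns were summed per annotated gene name, since the table's own symbols merge some neighbours. A read that crosses more than 1 junction adds to each. Genes were tested with edgeR 4.0.16 (TMM, quasi-likelihood, two-sided, filter on low counts) in R 4.3.3, with all 8 libraries of the table in the fit. Exon, site and junction choice were tested with edgeR's diffSpliceDGE, the cassette exons and sites with at least 20 reads on average. Junctions tested within genes had a mean of at least 10 reads in genes with at least 3 such junctions. DESeq2 1.42.0, limma 3.58.1 with voom and the other alternatives are given in the closing section. No paired fit was possible. Reads without molecular identifiers are not independent molecules.

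The members, lists and named exons were chosen with earlier results of these data known. Named genes were the 10 largest log2 differences in each direction whose average log2 CPM was 3 or more, and members of the lists. The within-gene junction test, the annotated gene names and the test without uneven exons were added after the table was seen. On simulated counts with a dispersion of 0.005, the gene test recovered 85% of 2-fold and 73% of 1.5-fold changes among 15057 genes with 5 false calls. The exon test recovered 100% of changes of 40 points and 87% of 20 points among 1139 exons with 1 false call. The within-gene junction test recovered 93% of 4-fold changes among 141867 junctions, and the tests at shared sites 49% (5′) and 40% (3′) of 4-fold changes. These simulations changed only 100 features of each size, and exons only at intermediate PSI. In the data 73.8% of genes were called, so the simulated rates need not hold there. Some results are not reported here.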

Additional observations from a re-analysis of the deposited data

How the results depend on the processing

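No paired analysis was possible because the columns carry no replicate letter. Counts of genes stayed within 1.5 times under every alternative run: DESeq2 called 5253 higher and 5553 lower, library totals alone 6656 and 5071, and leaving out 1 library gave 5144 to 5450 higher and 5254 to 5554 lower. Requiring a difference of 20 points left 34 exons with higher and 108 with lower inclusion, 201 junctions at shared 5′ splice sites and 295 at shared 3′ splice sites. Without exons whose inclusion junctions differ over 3-fold, 49 exons were higher. With limma's voom and diffSplice, 554 junctions were called at shared 5′ splice sites and 901 at shared 3′ splice sites, and the cause was not tested. The counts of junctions within genes stayed within 1.5 times under their alternatives. The median log2 difference over all genes, near 0, was -0.01 with DESeq2 and without either culture library and -0.02 with upper quartile factors. Sign was followed for the named genes and exons only. None of those that were called changed sign, and of the named genes that were not, Pdgfra, Dpysl3, Scn3a, Ptbp2 and Fkbp5 did. Among the named genes only, Gabra2 and Tsc22d3 lost their call under library totals alone or without 1 culture library. Of the named genes that were not called, Cux1 and Ptbp2 were called higher under library totals alone. Among the named exons, calls for the Enah 12 nt, Nf1 30 nt, Ptprs 59 nt, Erc2 12 nt and Ptprd 27 nt exons were lost when some single library was left out. With 2 libraries a group and single reads at many junctions, small differences at low counts cannot be resolved.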
